A study of Sus scrofa with 6 samples.

Results

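The genes of mitochondrial protein import were examined in RNA-seq of longissimus dorsi, a muscle of the back, from 3 pigs with an adipocyte-specific knock-in of UCP1 (UCP1 KI) and 3 wild-type (WT) pigs, all sampled at 6 months of age. Members were taken by symbol, as every gene of the TIMM and TOMM families together with *PAM16*, *SAMM50*, *MTX1* to *MTX3*, *PMPCA*, *PMPCB*, *GRPEL1* and *GRPEL2*, provided that at least 3 of the 6 libraries held 10 or more counts. Of 30476 genes in the matrix, 28 carried such a symbol and 27 met the count requirement. The exception was *TOMM20L*, with 3 counts in WT replicate 1 and 0 in each other library, too few to compare. *TOMM5*, *TOMM6*, *TIMM9*, *TIMM23*, *PAM16*, *GRPEL1* and *PMPCA* were matched to no row of the matrix and were not analysed here. The knock-in places UCP1, the uncoupling protein of brown fat, in adipocytes. Muscle fibres are not the targeted cells, but whole muscle also holds intramuscular fat. The paper reports that *UCP1* mRNA was not detected in muscle of either genotype. *UCP1* was not analysed here and the genotype was not checked against its transcript.

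Nearly all mitochondrial proteins are encoded in the nucleus, made in the cytosol and carried into the organelle by protein translocases. Precursors cross the outer membrane through the TOM complex. They are then sorted to the SAM complex for insertion of barrel-shaped outer membrane proteins, to the small TIM chaperones and the TIM22 complex for carrier proteins of the inner membrane, or to the TIM23 complex for proteins with a presequence. The PAM motor pulls the latter into the matrix, where the matrix processing peptidase removes the presequence. Skeletal muscle depends on this route for the enzymes of oxidative metabolism.

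The deposited values were raw counts of reads per gene, with library totals of 30220951 to 35066624. They were scaled to CPM, the count of a gene relative to its library size, with edgeR's TMM factors, which were lowest for WT replicate 2 (0.781) and highest for UCP1 KI replicate 2 (1.18). Where a gene has 0 counts, up to 3 remain possible by counting error alone, which is at most 0.11 CPM in these libraries. The muscle fibre markers *ACTA1*, *CKM*, *DES*, *TNNI1*, *TNNI2*, *TNNT1* and *TNNT3* together held 63288 to 103843 CPM in UCP1 KI pigs and 81929 to 116233 CPM in WT pigs, while *MYH1*, *MYH2*, *MYH4* and *MYH7*, the main myosin heavy chain genes of the marker lists, were matched to no row. In whole muscle, fewer cells of a type and less RNA per cell cannot be told apart. The labels do not say whether the pigs were littermates, and the p values measure the spread between these 6 pigs alone.

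None of the 27 import genes differed between UCP1 KI and WT pigs by the limits of the study, namely p below 0.05 before adjustment and a log2 fold change beyond 0.5 in either direction. Of all 13402 genes tested with edgeR's quasi-likelihood test, 8.19% passed both limits, 3.84% as higher and 4.34% as lower in UCP1 KI pigs. Among the import genes 0 had an unadjusted p under 0.05 by edgeR and 0 by DESeq2, and the smallest Benjamini-Hochberg adjusted p over all genes tested was 0.672 with edgeR and 0.581 with DESeq2 on the same genes. For 0 of the 27 genes did the CPM values of the groups separate completely, against 7.59% of all genes tested with all UCP1 KI pigs above all WT pigs and 7.69% with all of them below. The log2 fold change of UCP1 KI against WT was positive for 16 genes and negative for 11, with a median of 0.06 beside -0.02 over all genes tested, and ran from -0.55 for *TIMM10B* to 1.36 for *TOMM40L*.

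The intervals around these differences were narrower than for most genes. The 95% interval of the log2 fold change lay within -1 and 1, that is within a 2-fold change in either direction, for 18 of the 27 import genes (66.7%) and for 34.0% of all genes tested. The median standard error was 0.27 for the import genes and 0.36 for all genes, and the median biological coefficient of variation, edgeR's estimate of the relative spread between pigs, was 0.302 and 0.359. For *TOMM40L* it was 0.664, the widest of the 27. Differences of less than 2-fold remained possible for most members, since 0 of the 27 intervals left out 0.

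**Figure D1:**
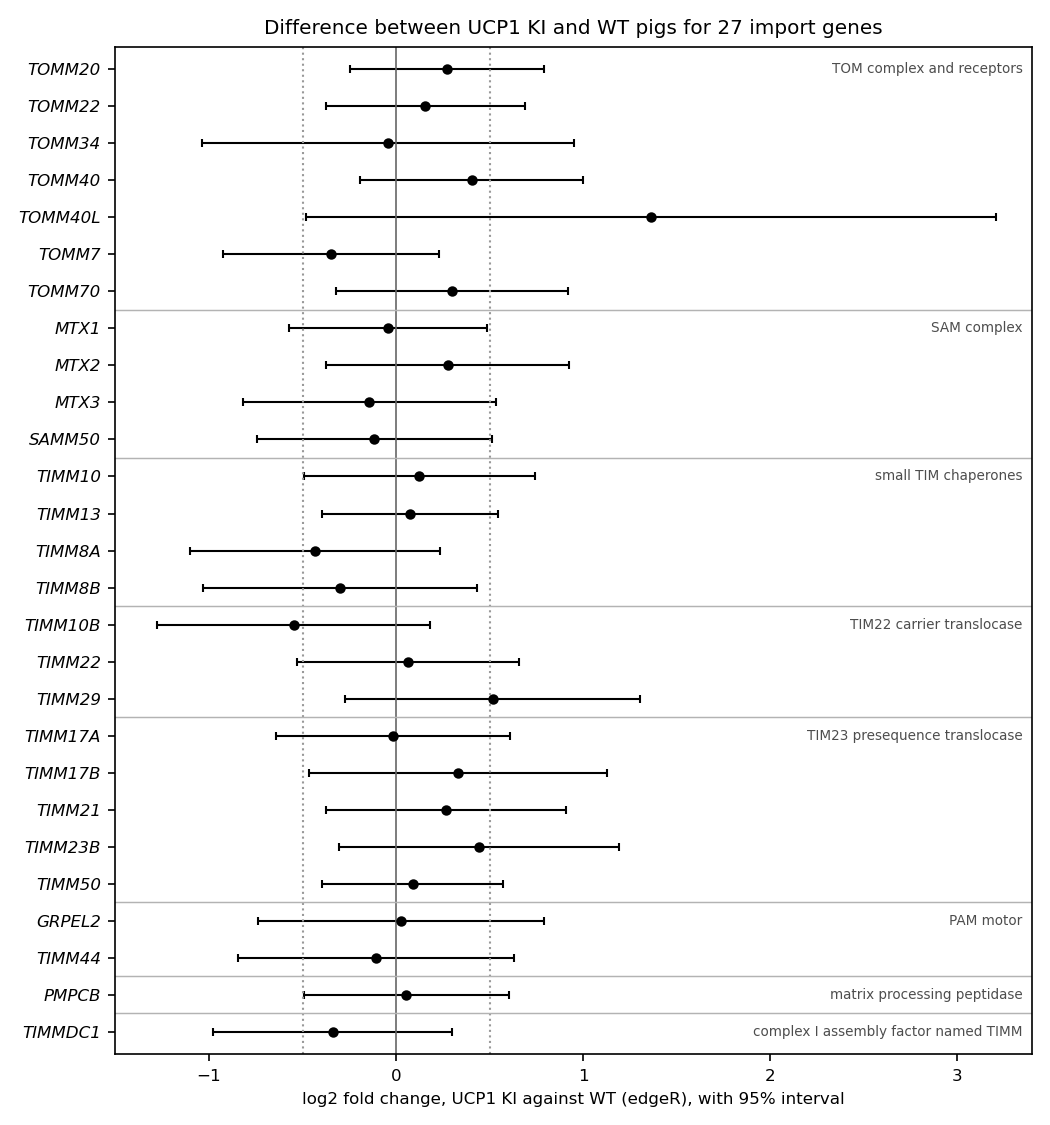
Log2 fold change of UCP1 KI against WT for each import gene (points, edgeR) with its 95% interval (bars), grouped by role, with dotted lines at the limits of -0.5 and 0.5. All 27 intervals include 0, and the interval of *TOMM40L* reaches from -0.48 to 3.21.

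The TOM complex is the entry gate of the outer membrane, with *TOMM40* as its channel, *TOMM20*, *TOMM22* and *TOMM70* as receptors, and *TOMM7* as a small subunit. Of the 7 genes counted here, which include the cytosolic *TOMM34*, 5 had a positive log2 fold change, and the median was 0.27. *TOMM40* (ENSSSCG00000003089; chromosome 6, 51359948 to 51369932 in Sscrofa11.1) was at 46.8, 49.5 and 41.3 CPM in UCP1 KI replicates 1 to 3, and at 29.2, 29.1 and 45.6 CPM in WT replicates 1 to 3. The WT animals fell into a pair well below the knock-in range and 1 pig, replicate 3, inside it. The log2 fold change was 0.41 (standard error 0.26, edgeR adjusted p = 0.698). *TOMM20* (ENSSSCG00000010158; chromosome 14, 56113087 to 56127686) had the same arrangement, at 82.8, 94.1 and 79.1 CPM with UCP1 KI against 64.1, 65.2 and 82.5 CPM in WT, and a log2 fold change of 0.27 (standard error 0.22). For *TOMM70* the values were 51.6, 59.6 and 74.1 CPM in UCP1 KI and 39.0, 48.5 and 63.2 CPM in WT, again with WT replicate 3 inside the knock-in range.

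*TOMM22* was the steadiest receptor in the knock-in animals, at 91.2 ± 1.83 CPM (SD, n = 3), and stood at 81.8 ± 14.5 CPM (SD, n = 3) in WT, where replicate 1 was lowest at 65.3 CPM. *TOMM7* (ENSSSCG00000015384) leaned the other way, with 73.4, 55.0 and 69.1 CPM in UCP1 KI pigs and 65.6, 96.4 and 89.0 CPM in WT pigs. That is a log2 fold change of -0.35 (standard error 0.25, edgeR adjusted p = 0.722), and WT replicate 1 lay among the knock-in values. *TOMM34*, a cytosolic co-chaperone that shares the family name, was low in every pig, from 1.62 to 3.62 CPM with both extremes in UCP1 KI, and had a log2 fold change of -0.04.

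*TOMM40L* (ENSSSCG00000006354; chromosome 4, 89230729 to 89235504), which encodes a second form of the channel protein, was the most variable member. Its counts were 313, 69 and 442 in UCP1 KI replicates 1 to 3 and 43, 171 and 55 in WT replicates 1 to 3, or 10.1, 1.94 and 11.7 CPM against 1.19, 6.25 and 1.84 CPM. High and low pigs occurred in both genotypes, with UCP1 KI replicates 1 and 3 and WT replicate 2 on the high side. Its fold change was the highest of the members at 1.36 on the log2 scale (standard error 0.79), and the edgeR adjusted p was 0.676. It passed both limits without UCP1 KI replicate 2, at 1.81, and without WT replicate 2, at 2.39, which are the pigs that crossed between the levels, and with scaling by library size only, at 1.71. In these settings 2.10%, 2.40% and 6.93% of all genes passed as higher. *TOMM40L* did not pass with any other pig left out, at 0.96 (without WT replicate 1) to 1.15 (without UCP1 KI replicate 1). In RefSeq the gene overlaps *NR1I3*, and without a stated strand setting the reads of overlapping genes cannot be told apart.

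The SAM complex inserts barrel proteins, among them TOMM40 itself, into the outer membrane, with *SAMM50* as its core and the metaxins as partners. The log2 fold changes of its 4 genes lay between -0.14 for *MTX3* and 0.28 for *MTX2*. *MTX2* (ENSSSCG00000022222; chromosome 15, 82061381 to 82139073), the gene of this complex with the smallest p, was at 12.2, 15.5 and 17.9 CPM in UCP1 KI and 13.1, 9.31 and 15.1 CPM in WT, and the groups overlapped. *MTX1* hardly varied, with 8.12 ± 0.711 CPM (SD, n = 3) in UCP1 KI and 8.36 ± 0.434 CPM (SD, n = 3) in WT, and the interval of its log2 fold change ran from -0.57 to 0.49. *SAMM50* averaged 61.6 ± 15.2 CPM (SD, n = 3) in UCP1 KI and 66.8 ± 11.4 CPM (SD, n = 3) in WT, with UCP1 KI replicate 2 lowest at 44.4 CPM.

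The small TIM proteins escort hydrophobic precursors across the space between the membranes. *TIMM8A* (ENSSSCG00000012494; X chromosome, 82978128 to 82981038) was at 13.9, 10.9 and 10.1 CPM in UCP1 KI pigs and 12.5, 13.6 and 21.0 CPM in the WT group, where WT replicate 3 stood apart from the other animals. Its log2 fold change was -0.43 (standard error 0.29, edgeR adjusted p = 0.701), and -0.17 without that pig. *TIMM8B* (ENSSSCG00000023599), its close relative, was at 141.9, 89.1 and 143.0 CPM in UCP1 KI and 104.1, 178.8 and 177.3 CPM in WT, a log2 fold change of -0.30 (standard error 0.32). *TIMM10* and *TIMM13*, subunits of the hexamers that the small TIM proteins form, had log2 fold changes of 0.12 and 0.07. *TIMM13* was among the most even members, with 48.8 ± 3.34 CPM (SD, n = 3) in UCP1 KI and 46.4 ± 3.06 CPM (SD, n = 3) in WT.

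The TIM22 complex places carrier proteins into the inner membrane. Its members *TIMM10B* and *TIMM29* held the lowest log2 fold change of the 27 and the highest after *TOMM40L*. *TIMM10B* (ENSSSCG00000037299; chromosome 9, 3248474 to 3249975), a small TIM protein bound to this complex, was at 10.1, 7.97 and 7.84 CPM in UCP1 KI pigs and 8.19, 16.7 and 13.0 CPM in WT pigs. WT replicate 1 lay with the knock-in animals and the other WT pigs above them. The log2 fold change was -0.55 (standard error 0.31, unadjusted p = 0.121 and adjusted p = 0.672 from edgeR). Without WT replicate 1 it was -0.79 and passed both limits, as 3.69% of all genes did as lower in that setting. It was -0.30 without WT replicate 2 and -0.26 with scaling by library size only, and passed in neither. *TIMM29* (ENSSSCG00000013635; chromosome 2, 69649670 to 69652369) was at 17.5, 18.4 and 24.2 CPM in UCP1 KI and 10.1, 10.96 and 21.0 CPM in WT, a log2 fold change of 0.52 (standard error 0.34, edgeR adjusted p = 0.701). Its RefSeq span overlaps *YIPF2*. *TIMM22*, the channel of the complex, was at 7.86, 7.57 and 9.93 CPM in UCP1 KI and 6.89, 7.89 and 9.48 CPM in WT, with overlap.

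The TIM23 complex is the inner membrane gate for proteins with a presequence. Of its 5 genes taken by the symbol rule, 4 had a positive log2 fold change, with a median of 0.27. Its small subunit *ROMO1*, outside that rule, was at -0.54 and is described below. *TIMM23B* (ENSSSCG00000033700), the form of the channel gene present under a symbol, was at 35.1, 30.2 and 44.4 CPM in UCP1 KI pigs and 19.8, 21.7 and 39.2 CPM in WT pigs. WT replicates 1 and 2 were below the knock-in animals and WT replicate 3 was inside their range, for a log2 fold change of 0.44 (standard error 0.32, edgeR adjusted p = 0.724). Reads of a near-identical *TIMM23* copy could be counted here or elsewhere, so the value is uncertain. *TIMM21*, a regulator of the complex, was at 11.8, 12.7 and 10.7 CPM in UCP1 KI and 8.16, 8.07 and 13.0 CPM in WT, a log2 fold change of 0.27 with WT replicate 3 as the highest pig. *TIMM50*, the receptor of the complex, was nearly constant in UCP1 KI at 29.3 ± 0.768 CPM (SD, n = 3) and stood at 27.5 ± 3.46 CPM (SD, n = 3) in WT.

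*TIMM17A* and *TIMM17B* encode alternative forms of a structural subunit of the same complex. *TIMM17A* averaged 15.3 ± 3.18 CPM (SD, n = 3) in UCP1 KI and 15.4 ± 3.03 CPM (SD, n = 3) in WT, a log2 fold change of -0.02. *TIMM17B* (ENSSSCG00000022647), on the X chromosome, spread from 24.2 to 54.2 CPM within the knock-in group and from 24.8 to 37.3 CPM in WT, and its log2 fold change of 0.33 had a standard error of 0.34.

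Under the symbol rule the PAM motor was represented by *TIMM44*, which tethers the motor to the TIM23 channel, and *GRPEL2*, a nucleotide exchange factor of the motor's Hsp70. *TIMM44* (ENSSSCG00000013591; chromosome 2, 71271778 to 71287795) was at 32.8, 20.3 and 32.3 CPM in UCP1 KI and 26.8, 22.9 and 42.2 CPM in WT, with WT replicate 3 above every knock-in animal and the other WT pigs inside their range. Its log2 fold change was -0.11 and that of *GRPEL2* 0.03, with edgeR adjusted p values of 0.936 and 0.985. *PMPCB* (ENSSSCG00000015422; chromosome 9, 103316161 to 103329653), the catalytic subunit of the matrix processing peptidase, was at 51.1, 42.1 and 62.5 CPM in UCP1 KI and 51.7, 44.6 and 53.5 CPM in WT, all WT values inside the knock-in range. *TIMMDC1* (ENSSSCG00000037639), a complex I assembly factor that carries the TIMM name, was at 7.83, 6.28 and 9.59 CPM in UCP1 KI and 9.18, 8.69 and 12.1 CPM in WT, a log2 fold change of -0.34 (standard error 0.27).

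Differences between pigs of the same genotype were as large as those between genotypes. UCP1 KI replicate 3 had the highest CPM of the 6 pigs for 10 of the 27 genes and WT replicate 3 for 7, whereas UCP1 KI replicate 2 was lowest for 10 and WT replicate 1 for 8. WT replicate 1 was highest for 0 genes, and UCP1 KI replicate 1 and WT replicate 3 were lowest for 0. The mean log2(CPM + 1) of the 27 genes was 4.63, 4.42 and 4.68 in UCP1 KI replicates 1 to 3 and 4.27, 4.46 and 4.74 in WT replicates 1 to 3, so both ends of the range were WT animals. As a share of all counts, with no TMM scaling, the 27 genes took 0.0932%, 0.0990% and 0.118% in UCP1 KI and 0.0803%, 0.0721% and 0.0989% in WT. By this measure WT replicate 3 lay between knock-in animals, while the other WT pigs were below all 3.

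**Figure D2:**
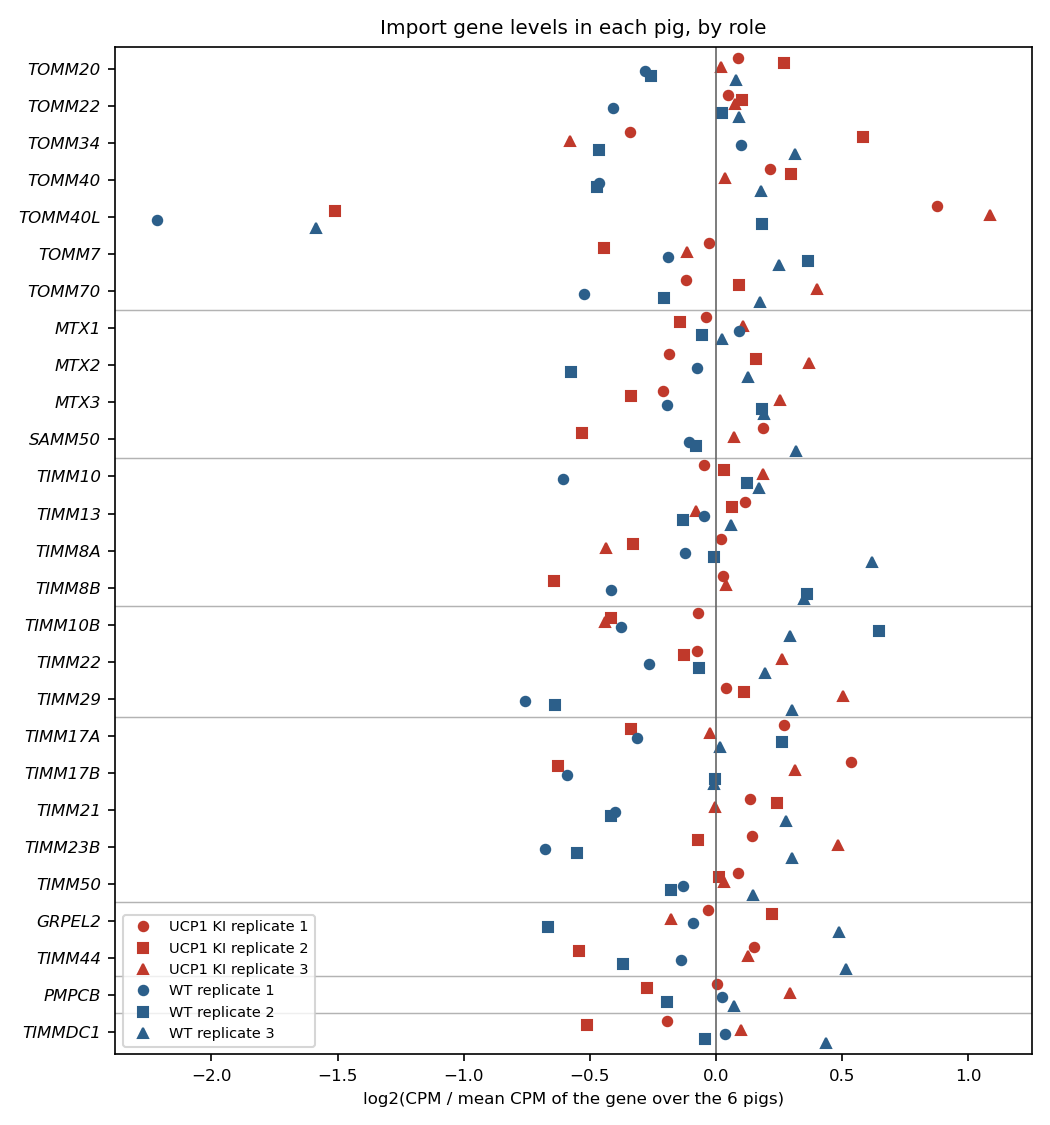
CPM of each import gene in each pig relative to that gene's mean over the 6 pigs, on a log2 axis, with red symbols for UCP1 KI and blue for WT and 1 symbol shape per replicate number. WT replicate 3 (blue triangles) lies among the red symbols for *TOMM20*, *TOMM40*, *TIMM29* and *TIMM23B*, where the other WT pigs lie to the left, and *TOMM40L* spreads over the widest range.

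WT replicate 3 decided several of these comparisons. Without it, all knock-in animals were above both remaining WT pigs for 8 of the 27 genes, namely *TOMM20*, *TOMM22*, *TOMM40*, *TOMM70*, *TIMM21*, *TIMM23B*, *TIMM29* and *TIMM50*, as were 16.5% of all genes tested. In that fit 3 genes passed both limits as higher in UCP1 KI pigs, against 5.41% of all genes. These were *TIMM29* (log2 fold change 0.93, standard error 0.27), *TIMM23B* (0.82, standard error 0.27) and *TOMM40* (0.66, standard error 0.23), with edgeR adjusted p values of 0.413, 0.414 and 0.423. With other pigs left out they fell, *TIMM29* and *TIMM23B* to 0.32 and 0.26 without WT replicate 1 and *TOMM40* to 0.29 without WT replicate 2. Without WT replicate 1 the genes separated in the other direction were *TIMM10B*, *TIMM8B* and *TOMM7*, as were 13.4% of all genes, and 0 were separated as higher, against 13.5% of all genes.

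Fibre marker levels varied among the same pigs. The summed CPM of 7 fast fibre markers was 48494, 14697 and 48123 in UCP1 KI replicates 1 to 3. In WT replicates 1 to 3 it was 29899, 74501 and 77538. UCP1 KI replicate 2 and WT replicate 1 were most often lowest for import genes, with 10 and 8 genes. WT replicate 2 was lowest for 6 genes, and UCP1 KI replicate 3 was highest for 10. That of 7 slow fibre markers was highest in WT replicate 1 at 18406 and lowest in WT replicate 2 at 4404. The part of fibre type in the import gene values was not tested. Among 7 fibroblast markers, *COL1A1*, *COL1A2*, *COL3A1* and *LUM* passed both limits as lower in the knock-in group, beside 4.34% of all genes, whereas *DCN*, *PDGFRA* and *FBLN1* overlapped with log2 fold changes of -0.39, -0.08 and 0.10. The summed CPM of all 7 was 247 to 443 in UCP1 KI and 748 to 1202 in WT, and that of the 4 without the collagen genes was 129.5 to 151.4 and 149.0 to 209.1, with overlap. Of 9 adipocyte markers tested, *LIPE* and *PNPLA2* passed as higher (1.12 and 0.57) and *CFD* as lower (-0.85), beside 3.84% and 4.34% of all genes. The median of the 9 was -0.80, *ADIPOQ*, *FABP4*, *PLIN1* and *CIDEC* were at -1.26, -1.22, -1.13 and -0.80 with overlap, and the summed CPM was 479 to 597 in UCP1 KI and 502 to 681 in WT. WT replicate 2 had the highest *FABP4*, *ADIPOQ* and *PLIN1*, at 253.3, 15.6 and 8.47 CPM, while *LEP* was at most 0.511 CPM in any pig. All 9 leukocyte markers tested had positive log2 fold changes, as did 48.7% of all genes. *CD3E* and *ITGAM* passed as higher (1.84 and 1.52), beside 3.84% of all genes, with UCP1 KI replicate 3 inside the WT range for both, and the sums were 103.5 to 196.9 CPM in UCP1 KI and 106.2 to 152.0 CPM in WT. The part of these cell types in the import gene values was not tested either.

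Ratios of related members within a pig do not depend on library scaling, and since counts are not corrected for transcript length only the difference in a ratio between groups is of use. They were compared for 6 pairs chosen after the values had been seen. The log2 ratio of *TIMM10B* to *TIMM10* counts was -1.80, -2.23 and -2.41 for the knock-in animals and -1.55, -1.26 and -1.66 for the WT animals, lower in every knock-in animal than in every WT animal. The difference of -0.66 had p = 0.1 in a two-sided exact permutation test, the lowest value that groups of this size can reach, and 0.6 after adjustment over the 6 pairs. The ratio of *TOMM40L* to *TOMM40* split the pigs at about the same points as *TOMM40L* alone, with -2.21, -4.68 and -1.82 in the knock-in group and -4.62, -2.22 and -4.63 in WT. The log2 ratio of *TIMM17B* to *TIMM17A* counts was 1.39 ± 0.346 (SD, n = 3) in UCP1 KI and 1.09 ± 0.145 (SD, n = 3) in WT, with overlap. The ratios of *TIMM8B* to *TIMM8A*, *MTX2* to *MTX1* and *MTX3* to *MTX1* differed by 0.12, 0.33 and -0.11, and these groups overlapped.

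**Figure D3:**
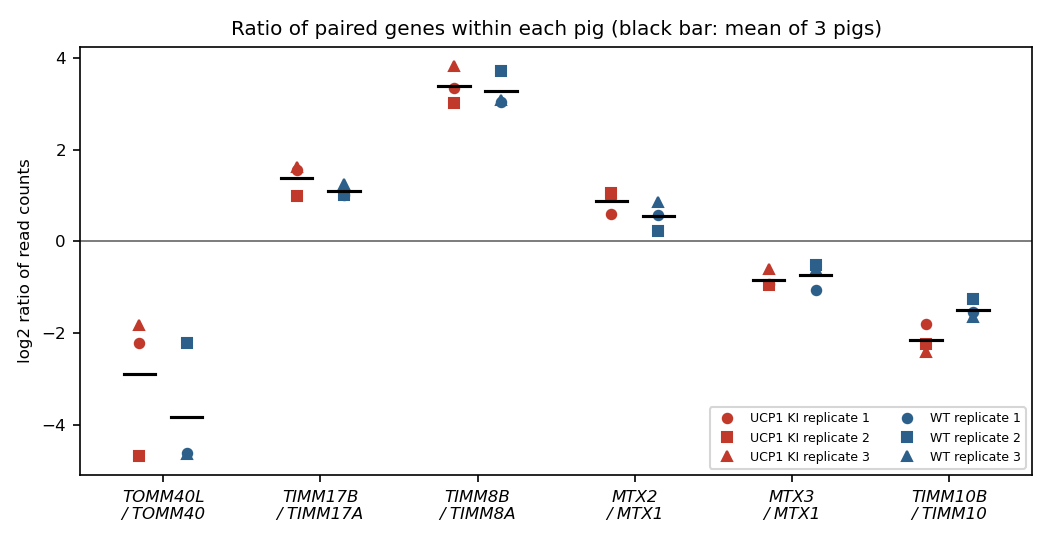
Log2 ratio of read counts for 6 pairs of related import genes in each pig, red for UCP1 KI and blue for WT, with black bars at group means and 1 symbol shape per replicate number. The groups separate for *TIMM10B* over *TIMM10* (means -2.15 and -1.49) and overlap for the other 5 pairs.

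Other genes of the import route were taken from lists fixed by symbol. Of 20 further import and assembly genes, 0 passed both limits, beside 8.19% of all genes. Among them 12 had positive log2 fold changes, and the median was 0.14. *HSPA9*, the Hsp70 of the PAM motor, averaged 159.8 ± 39.9 CPM (SD, n = 3) in UCP1 KI and 125.5 ± 42.8 CPM (SD, n = 3) in WT, a log2 fold change of 0.35 (standard error 0.32). Complete separation occurred for *AGK*, *CHCHD3*, *DNAJC11* and *PITRM1*, higher in UCP1 KI with log2 fold changes of 0.38, 0.31, 0.88 and 0.47, and for *ROMO1*, lower with -0.54, against 7.59% and 7.69% of all genes separated as higher and as lower. These genes were named after their values were seen. *ROMO1* encodes a small subunit of the TIM23 complex and was at 68.2, 44.6 and 65.5 CPM in UCP1 KI against 79.4, 94.2 and 85.5 CPM in WT (edgeR adjusted p = 0.618). *DNAJC11*, a partner of the SAM complex, was at 32.7, 31.4 and 44.2 CPM against 7.39, 21.9 and 29.7 CPM, with 1 WT pig far below the rest.

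Among 14 matrix chaperone and quality control genes 0 passed both limits, beside 8.19% of all genes, 12 were positive and the median was 0.20. The chaperonin genes *HSPD1* and *HSPE1* had log2 fold changes of 0.41 (standard error 0.33) and 0.16 (standard error 0.39), with UCP1 KI replicate 2 highest in both cases. *PHB2*, a prohibitin of the inner membrane, and *CLPP*, a matrix protease, were separated as higher in UCP1 KI, at log2 fold changes of 0.70 and 0.43, as were 7.59% of all genes. Of 11 cytosolic chaperone and co-chaperone genes, a list that includes the myosin chaperones *UNC45A* and *UNC45B*, 1 passed both limits as higher, beside 3.84% of all genes. This was *HSP90AB1*, at 355.9, 701.3 and 289.2 CPM in UCP1 KI pigs and 142.2, 129.7 and 225.8 CPM in WT pigs, which was higher by a log2 fold change of 1.44 (standard error 0.41, edgeR adjusted p = 0.583). *VDAC1* and *VDAC3*, channel genes whose products reach the outer membrane by this route, had log2 fold changes of 0.03 and 0.55 and did not pass, although *VDAC3* was among the 7.59% of genes that were higher in every knock-in pig than in every WT pig.

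Genes whose products depend on these gates had other medians. Over 63 mitochondrial ribosomal protein genes the median log2 fold change was 0.13, and 11 were separated as higher, beside 7.59% of all genes. *MRPL4*, *MRPL13*, *MRPL19*, *MRPS10* and *MRPS18B* passed both limits as higher and 0 as lower, beside 3.84% and 4.34% of all genes, and 1 to 8 passed as higher with a pig left out, beside 2.10% to 5.41%. The median was 0.01 without WT replicate 1 and 0.24 without WT replicate 3.

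Over 64 nuclear genes of the respiratory chain and ATP synthase the median was -0.27 and 58 values were negative, against 6876 of 13402 over all genes. *NDUFA2*, *NDUFA5*, *NDUFB1* and *ATP5ME* passed both limits as lower and 0 as higher, beside 4.34% and 3.84% of all genes, and 13 were separated as lower, beside 7.69%. UCP1 KI replicate 2 stood apart with a summed level of 8703 CPM, against 12896 to 15638 CPM in the other 5 pigs, and it was also the pig with the lowest fast fibre markers. Without it the median was -0.08, with 42 negative values of 65. In that fit 2 genes passed both limits as lower, beside 2.82% of all genes. With UCP1 KI replicate 1 left out instead, the median was -0.44.

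The mRNAs of mitochondrial DNA are made inside the organelle and need no import. Over the 13 of them the median was -0.58, 1 of them, *ND4L*, passed as lower, beside 4.34% of all genes, and 3 were separated as lower, beside 7.69%. WT replicate 2 held 520842 CPM of these mRNAs. The other WT pigs held 243219 and 293261 CPM, and the UCP1 KI pigs 193883 to 290626 CPM. Without WT replicate 2 the median was -0.14 and 0 passed, beside 2.40% of all genes as higher and 2.79% as lower. In 35 proteasome subunit genes, examined as a list outside mitochondria, the median was 0.50 and 12 passed as higher, beside 3.84% of all genes, a count that ran from 1 to 15 with a pig left out, beside 2.10% to 5.41%. The median of the import genes, at 0.06, was below that of the ribosomal list here but above it without UCP1 KI replicate 3 (0.10 and 0.06), and the difference between lists was not tested.

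**Figure D4:**
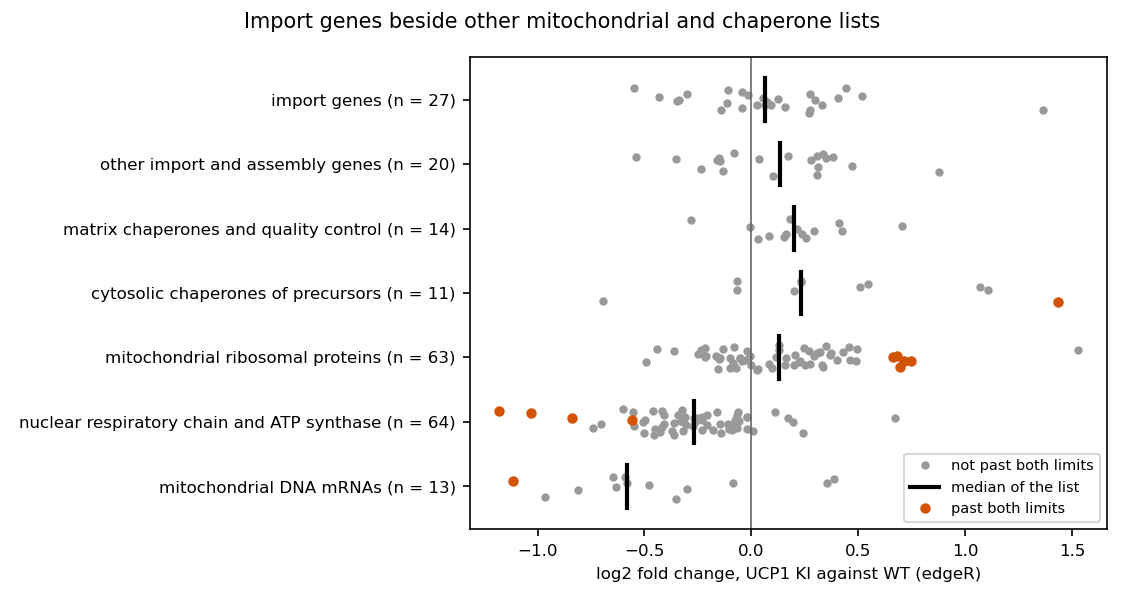
Log2 fold change of UCP1 KI against WT (edgeR) for the import genes and for 6 other lists, with 1 point per gene, black bars at list medians and orange points for genes past both limits. The import genes hold 0 orange points around a median of 0.06, beside medians of 0.13 for mitochondrial ribosomal proteins and -0.27 for the nuclear respiratory chain.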

How the data were processed

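Gene expression was measured in muscle of 3 UCP1 KI and 3 WT pigs, 1 library per pig. According to their processing notes the authors used FastQC 0.11.2, Trimmomatic 0.36, HISAT2 2.0 and StringTie 1.3.3b with the build Sscrofa11.1. They deposited raw counts per Ensembl gene. The counting program, its strand setting and the annotation release are not given in the sources used here, and 0 columns were left unused.

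The whole matrix was analysed in R 4.3.3 with edgeR 4.0.16 (filterByExpr, TMM, quasi-likelihood F test, two-sided, genotype as the only term), and p values were adjusted by Benjamini-Hochberg over the 13402 genes tested. The method was tested on simulated data. The standard error is the absolute log2 fold change over the root of F, and intervals use the t distribution of the fit. DESeq2 1.42.0 was an alternative. Exact permutation tests enumerated all assignments of the 6 pigs. Levels of different genes were not ranked, since no transcript lengths were at hand, and ratios of gene pairs were compared between groups only.

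Symbols came from a table of pig Ensembl names, which named 14864 of 30476 identifiers. Positions are those of RefSeq on Sscrofa11.1, matched by symbol for 26 of 27 genes. The entry for *TIMM10* is a noncoding model. Protein and promoter sequences were not used here. By rule, values in every pig were given for import genes past the limits or without overlap and for the one with the smallest p in each role group, and of the other lists described genes past both limits were named, except for the proteasome, whose genes are given as a count. Further genes and the 6 gene pairs were chosen after their values were seen, as was leaving out pigs for the other lists and for *HSP90AB1*. Members, lists and alternatives were chosen with earlier results of these data known. The replicate number entered as a block in an alternative fit only.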

Additional observations from a re-analysis of the deposited data

How the results depend on the processing

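Of the 27 import genes, 0 passed both limits with DESeq2 on the same genes or on all genes with any count, with median-of-ratios factors, with either other filter, with the replicate number as a block (replicate block: 0 genes, median log2 fold change 0.07) or with no fold change limit. Scaling by library size only raised the median of all genes from -0.02 to 0.24. It gave 1 gene past both limits (*TOMM40L*), a median over the import genes of 0.32 and 2 genes without overlap (*TOMM20* and *TOMM40*, higher in UCP1 KI, beside 14.6% of all genes, both directions together). The import genes then stood 0.08 above the median of all genes, as with TMM factors. This scaling turned *TOMM34* to 0.21, *TIMM17A* to 0.25, *SAMM50* to 0.12, *TIMM44* to 0.12, *MTX3* to 0.14 and *MTX1* to 0.20, and testing all genes with any count turned *TIMM17A* to 0.00436. With each pig left out in turn, 0 to 3 import genes passed both limits (of all genes, 2.10% to 5.41% as higher and 2.79% to 5.71% as lower), 1 to 8 were without overlap (21.3% to 32.4% of all genes, both directions together), and the median ran from -0.00102 to 0.197. The sign changed for *GRPEL2* (-0.22 to 0.36), *TIMM17A* (-0.18 to 0.13), *SAMM50* (-0.25 to 0.0660), *TIMM44* (-0.28 to 0.20), *MTX1* (-0.11 to 0.00230), *TOMM34* (-0.48 to 0.17), *PMPCB* (-0.10 to 0.17), *TIMM22* (-0.0652 to 0.20) and *TIMM10* (-0.0943 to 0.26). Import genes not named here as turned kept their direction in all settings run. *HSP90AB1* passed both limits with each pig left out (0.96 to 1.72). The pig numbers are not known to pair animals. Deviations from the group means correlated over genes at 0.00383, 0.0943 and 0.283 for the same-numbered pigs, and UCP1 KI replicates 1 and 2 correlated best with another number. The replicate block moved the count over all genes from 1097 to 1114. The causes of these changes were not tested.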
